A study of Mus musculus with 9 samples.

Results

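The endothelial junction genes were 9 genes of the contacts that join brain endothelial cells (BECs) to each other. They were taken by symbol from the 31053 genes of the count tables, and all 9 were found. Cldn5, Ocln, Marveld2, F11r and Esam encode membrane proteins of the tight junction. Tjp1 and Cgn encode proteins of its cytoplasmic scaffold, Cdh5 the cadherin of the adherens junction, and Pecam1 an adhesion molecule of the cell border. RNA of single nuclei was sequenced, and molecules were counted by their unique molecular identifiers (UMIs), in the combined cortex and hippocampus of 9 male wild-type C57BL/6 mice, 1 library per mouse. All mice carried an adeno-associated virus (AAV) given 8 weeks earlier, with the PHP.V1 capsid and a short CLDN5 promoter that is active in endothelial cells. The virus carried EGFP alone in 3 young mice of 5 months (young AAV-EGFP) and in 3 aged mice of 19 months (aged AAV-EGFP), and EGFP with B3GNT3 in 3 aged mice of 19 months (aged AAV-B3GNT3). B3GNT3 is a glycosyltransferase that lengthens the O-linked sugar chains of mucins, and no group was free of virus. By the paper's methods, aged mice came from the National Institute on Aging and young mice from Jackson Laboratories. Age and source of the mice therefore cannot be told apart.

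The blood-brain barrier rests on junctions that seal the gaps between endothelial cells of brain capillaries. Claudin-5 (Cldn5) closes the paracellular path to small molecules, and occludin (Ocln) and tricellulin (Marveld2) belong to the same strands, tricellulin at the corners where several cells meet. ZO-1 (Tjp1) and cingulin (Cgn) tie the strands to actin, and VE-cadherin (Cdh5) holds the adherens junction, on which the tight junction depends. JAM-A (F11r), ESAM and PECAM-1 are immunoglobulin-type adhesion molecules that also take part in the passage of leukocytes.

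Clusters were named from marker genes that did not include any junction gene, and the junction genes were also kept out of clustering. This gave 791 BEC nuclei of 70287 kept nuclei, 51 to 127 per mouse, with 142236 to 357957 UMIs per mouse, while whole libraries held 47332047 to 79964605 UMIs. All 11 BEC markers were detected in the BEC nuclei. The share of BECs among nuclei was 1.30% ± 0.119 for young AAV-EGFP (SD, n = 3), 0.909% ± 0.270 for aged AAV-EGFP and 1.15% ± 0.281 for aged AAV-B3GNT3, with p = 0.182 over 280 partitions (exact permutation, F statistic). By genes of neurons, oligodendrocytes, astrocytes and microglia, 34.0 to 53.9% of UMIs in BEC sums were estimated to be free RNA, and the ranges of the groups overlapped. The BEC cluster had a mean doublet score of 0.415 (how much of a nucleus's neighbourhood was artificial doublets, from 0 to 1). Of the other named clusters 1 of fibroblasts (0.452) and 1 of 148 neurons (0.506) scored higher, and the rest lay between 0.081 and 0.264. The part of doublets in the BEC values was not tested beyond leaving out their removal. B3gnt3, the mouse gene of the enzyme in the virus, had 7, 3 and 1 UMIs in BECs of young AAV-EGFP replicates 1 to 3, 0 in each aged AAV-EGFP mouse, and 0, 4 and 4 in the treated mice. Whether the viral transcript could be counted under the mouse gene is not known, so these UMIs do not check the treatment, and the groups rest on their labels. Libraries shared 7 to 37 cell barcodes in pairs, at most 0.414% of the smaller library.

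The junction genes differ in structure, which bears on what nuclei report. In the GENCODE vM21 annotation of GRCm38, Cldn5 (chr16:18776847-18778262, plus strand) is a single exon of 1.42 kb with no intron. Esam (chr9:37528078-37538319, plus) spans 10.2 kb, Marveld2 (chr13:100595957-100616971, minus) 21.0 kb, Cgn (chr3:94760069-94786492, minus) 26.4 kb, F11r (chr1:171437535-171464603, plus) 27.1 kb and Cdh5 (chr8:104101625-104144511, plus) 42.9 kb. Ocln (chr13:100496507-100552718, minus) spans 56.2 kb, Pecam1 (chr11:106654217-106750628, minus) 96.4 kb and Tjp1 (chr7:65296165-65527781, minus) 232 kb, of which 96.6% is intron. Ocln and Marveld2 lie 43.2 kb apart, with 1 gene of the tables, Gm48596, between them. Gm29682, on the other strand inside Cdh5, had 9 UMIs in all BECs. No other gene of the tables overlaps a member.

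RefSeq promoter sequences were at hand for 6 of the 9 members, and Esam, Cdh5 and Pecam1 had none. The 4 shown are those of members that could be tested in BECs, from the shortest gene to the longest. Each runs 5′ to 3′ on the strand of the gene and holds 300 bases around the annotated start, on GRCm38.p6, which for Tjp1 lies inside the GENCODE span. Capitals mark the letters of an ETS core (CGGAAG or its reverse CTTCCG), a GC box (GGGCGG or CCGCCC) or a TATA box (TATAAA or TTTATA), searched on both strands. ETS factors are well-known regulators of endothelial genes.
Cldn5, chr16:18776597-18776896, plus strand: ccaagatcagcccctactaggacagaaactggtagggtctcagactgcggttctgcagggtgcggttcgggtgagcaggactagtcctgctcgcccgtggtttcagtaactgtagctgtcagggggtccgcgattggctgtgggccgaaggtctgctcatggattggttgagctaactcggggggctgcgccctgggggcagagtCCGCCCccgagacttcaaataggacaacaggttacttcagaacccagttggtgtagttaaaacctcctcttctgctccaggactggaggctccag
F11r, chr1:171437311-171437610, plus strand: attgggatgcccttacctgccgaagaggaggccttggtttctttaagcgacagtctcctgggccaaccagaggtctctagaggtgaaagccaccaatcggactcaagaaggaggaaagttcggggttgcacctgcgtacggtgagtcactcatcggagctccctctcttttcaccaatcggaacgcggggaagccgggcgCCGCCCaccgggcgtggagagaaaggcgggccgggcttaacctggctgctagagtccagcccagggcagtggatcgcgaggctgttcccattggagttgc
Ocln, chr13:100552669-100552968, minus strand: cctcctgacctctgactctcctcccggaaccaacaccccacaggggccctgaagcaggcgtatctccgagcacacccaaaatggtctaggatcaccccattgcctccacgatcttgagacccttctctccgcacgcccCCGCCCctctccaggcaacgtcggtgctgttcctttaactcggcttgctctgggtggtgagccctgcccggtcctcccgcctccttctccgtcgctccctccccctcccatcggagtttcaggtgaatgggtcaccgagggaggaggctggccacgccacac
Tjp1, chr7:65371195-65371494, minus strand: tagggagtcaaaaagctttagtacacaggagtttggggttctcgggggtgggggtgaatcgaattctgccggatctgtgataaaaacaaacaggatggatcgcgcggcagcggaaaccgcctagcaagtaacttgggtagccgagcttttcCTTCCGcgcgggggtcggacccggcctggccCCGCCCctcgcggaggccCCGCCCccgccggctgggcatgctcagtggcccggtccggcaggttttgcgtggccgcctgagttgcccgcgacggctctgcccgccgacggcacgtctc
Each of the 4 holds a GC box, a motif found in 35.9% of 27025 promoters of this length. The ETS core, in 17.2% of promoters, was found once, in Tjp1, and the TATA box, in 14.2%, in none of the 4. These are matches of letters only, and a missing match says nothing of a factor.

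The first question was where each gene was expressed. Levels are CPM, the UMIs of a gene scaled to a class total of 1e6, computed per mouse. Cldn5 was at 574 CPM ± 260 in BECs (SD, n = 9 mice), and its next class, fibroblasts, was at 3.96 CPM ± 4.68. Pecam1 was at 657 CPM ± 155 in BECs and next at 17.9 CPM ± 5.74 in microglia. For both genes the lowest BEC mouse lay above the highest mouse of every other class, with 329 CPM against at most 13.9 for Cldn5 and 520 against at most 26.4 for Pecam1. With free RNA subtracted, BEC levels were 896 CPM for Cldn5, 1031 for Pecam1, 474 for Ocln, 520 for Esam and 341 for Cdh5. BECs were 1.15% of the nuclei in named classes and held 74.8% of the Cldn5 UMIs and 59.9% of the Pecam1 UMIs.

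Ocln, Esam and Cdh5 were also highest in BECs, each with a second named class. Ocln stood at 299 CPM ± 78.8 in BECs and at 30.5 CPM ± 9.43 in fibroblasts (n = 9 for each). Esam stood at 329 CPM ± 73.7 in BECs and at 126 CPM ± 41.6 in pericytes, the mural cells that wrap capillaries. Cdh5 stood at 218 CPM ± 88.6 in BECs and at 68.3 CPM ± 14.5 in fibroblasts. In each case the lowest BEC mouse was above the highest mouse of the second class. For Esam and Cdh5 the second class in turn stood clear of all other named classes. For Ocln the highest pericyte mouse, at 25.1 CPM, overlapped the fibroblasts. The fibroblast class joined a cluster of 1289 nuclei with another of 598 nuclei, led by Slc47a1 and Slc26a7, which passed 3 fibroblast markers. At a clustering resolution of 1.0 a cluster of 601 nuclei led by the same genes was left unnamed. Ocln and Cdh5 were not split by cluster within the class.

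Tjp1, whose protein serves junctions of many cell types, was broad. Its level was 1346 CPM ± 205 in BECs, 802 ± 148 in astrocytes, 735 ± 113 in fibroblasts and 734 ± 131 in pericytes, and 362 ± 56.2 in oligodendrocytes, the lowest class. Neighbours in this order overlapped at every step, BECs and astrocytes included. F11r was highest in microglia, at 127 CPM ± 51.8, and second in BECs at 81.9 ± 27.1, and the mice of these classes overlapped. All other named classes had a mean of 9.65 CPM of F11r or less, while an unnamed cluster of 355 nuclei led by Ikzf1 and Siglech, genes of microglia, had 77.7 CPM ± 22.9 (n = 7 mice).

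**Figure D1:**
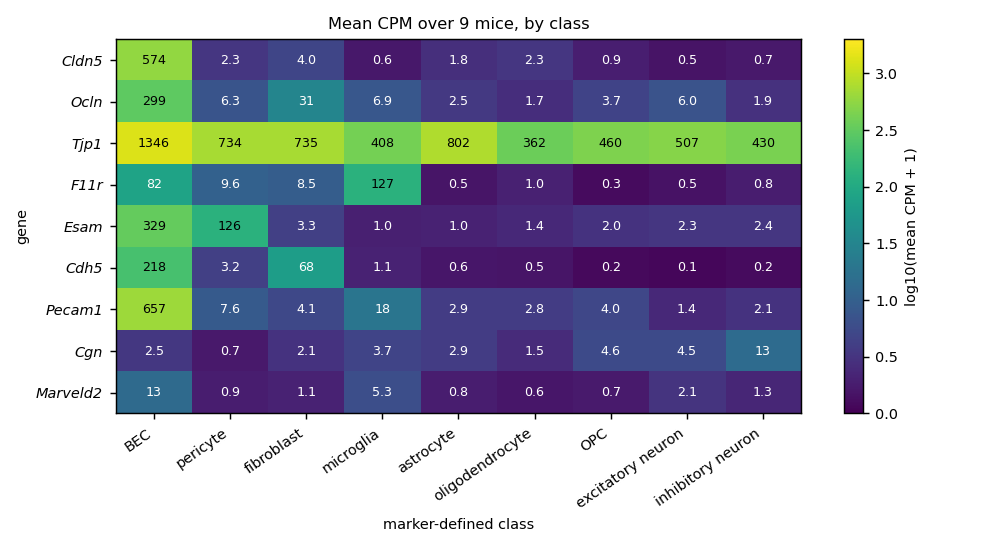
Mean CPM over 9 mice of each junction gene (rows) in each marker-defined class (columns), with the value printed in each cell and the colour as log10(mean CPM + 1). Cldn5 and Pecam1 stand almost alone in BECs, Esam is shared with pericytes, Cdh5 with fibroblasts and F11r with microglia, and Tjp1 is present throughout. Colours are to be read along a row.

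Marveld2 and Cgn were scarce in BECs. Marveld2 gave 27 UMIs over the 791 nuclei (12.7 CPM ± 5.99), and its range over mice overlapped that of microglia (5.26 CPM ± 3.35). Cgn gave 5 UMIs in BECs (2.46 CPM, n = 9) and ranked sixth of 9 classes, with inhibitory neurons first at 13.2 CPM ± 2.59. An unnamed cluster of 436 nuclei led by Hmga2 and Vwc2l held Cgn at 26.2 CPM ± 9.76 (n = 9). An unnamed cluster of 122 nuclei had Gmnc, Otx2os1 and Otx2 among its leading genes. It held Cgn at 41.9 CPM ± 30.7 (n = 6 mice), Marveld2 at 15.1 ± 13.4, Ocln at 133 ± 38.8 and F11r at 52.9 ± 29.5. The ranges over mice of Marveld2, Ocln and F11r there overlapped those of BECs. Cldn5 had 1 UMI in that cluster. This cluster met the marker rule of more than 1 class, ependymal cells among them, and was left unnamed. Without doublet removal, a cluster of 130 nuclei also led by Gmnc and Otx2os1 was named choroid plexus epithelium. It passed 6 markers of that class, Ttr, Folr1, Kl, Htr2c, Otx2 and Clic6.

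Levels of different genes were also given per kb. The study used a 3′ kit, in which each UMI stands for 1 molecule whatever its length. Values per kb of exon or span therefore do not rank the genes by expression. Without this scaling, pooled BEC levels were 1337 CPM for Tjp1, 648 for Pecam1 and 537 for Cldn5. Per kb of exon, BECs held 379 CPM of Cldn5, 171 of Tjp1, 111 of Esam, 104 of Pecam1, 71.9 of Ocln, 49.3 of Cdh5 and 29.5 of F11r. Per kb of genomic span Cldn5 stayed at 379 CPM, Esam followed at 31.1, and Tjp1, with its long introns, was at 5.77. At least 1 UMI of Tjp1 was found in 86.0% of BEC nuclei (95% Wilson interval 83.4 to 88.2), of Pecam1 in 69.7% (66.4 to 72.8), of Cldn5 in 53.1% (49.6 to 56.6), of Esam in 47.2% (43.7 to 50.6) and of Ocln in 43.1% (39.7 to 46.6). Cdh5 was found in 34.1% (30.9 to 37.5), F11r in 16.8% (14.4 to 19.6), Marveld2 in 3.16% (2.15 to 4.62) and Cgn in 0.506% (0.197 to 1.29). Median depth was 1976 UMIs in BECs. In oligodendrocyte precursors, which are deeper at 4251 UMIs and lack endothelial junctions, the shares were 0.414% for Cldn5, 1.51% for Ocln, 0.790% for Esam, 0.113% for Cdh5 and 1.47% for Pecam1, but 78.6% for Tjp1. The share of Cgn in those precursors, 1.99%, was above its share in BECs. Cgn was second highest in these precursors among named classes, so their share does not measure its background, and with nuclei thinned to 1000 UMIs it was 0.271% in BECs and 0.415% in precursors. F11r and Marveld2 were found in 0.151% and 0.301% of precursors. With nuclei thinned to 1000 UMIs, which left out 52 BEC nuclei, Cldn5 was found in 33.6% of BECs and in at most 0.309% of any other named class. Intervals cover counting error only.

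The comparisons that follow were made in BECs on counts summed per mouse, with edgeR's quasi-likelihood test and Benjamini-Hochberg adjustment over 5049 genes. Of the 9 members, 7 passed the filter on low counts. Cgn and Marveld2 did not, with 5 and 27 UMIs, and were not tested. The 3 comparisons are not independent. The ageing comparison (aged AAV-EGFP minus young AAV-EGFP) and the treatment comparison (aged AAV-B3GNT3 minus aged AAV-EGFP) share the aged AAV-EGFP libraries, and each shares a group with the comparison of aged AAV-B3GNT3 with young AAV-EGFP.

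Cldn5 was at 489, 368 and 376 CPM in young AAV-EGFP replicates 1 to 3, at 1026, 797 and 868 CPM in aged AAV-EGFP, and at 350, 329 and 561 CPM in aged AAV-B3GNT3. All 3 aged AAV-EGFP mice lay above all 6 others, and the share of all BEC genes with this order is not given here. The difference was a log2 fold change of 1.17 ± 0.26 (SE) for ageing (adjusted p = 0.0504) and -1.21 ± 0.26 for treatment (adjusted p = 0.0718), so that neither passed the threshold of 0.05. Per nucleus, Cldn5 UMIs numbered 0.872 to 1.496 in young AAV-EGFP, 1.99 to 2.86 in the aged controls and 0.740 to 1.62 in aged AAV-B3GNT3, and aged AAV-EGFP again did not overlap the others. DESeq2, the tool of the study, gave adjusted p = 0.0133 for ageing and 0.00758 for treatment on the same counts. The edgeR adjusted p without aged AAV-EGFP replicate 1, the mouse with the fewest BEC nuclei, was 0.0244 and 0.0292. Without any 1 of the other mice it lay between 0.0662 and 0.198 for ageing and between 0.0754 and 0.313 for treatment, the highest without young AAV-EGFP replicate 1 and aged AAV-B3GNT3 replicate 2, and with free RNA subtracted it was 0.203 and 0.135. With an offset for gene span, described below, Cldn5 was at 0.019 for ageing and 0.0059 for treatment. Aged AAV-B3GNT3 and young AAV-EGFP were apart by -0.04 ± 0.26 (adjusted p = 0.995).

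Ocln was at 352, 338 and 322 CPM in young AAV-EGFP, at 380, 180 and 172 CPM in aged AAV-EGFP, and at 356, 343 and 247 CPM in aged AAV-B3GNT3. A pair of aged AAV-EGFP mice were the lowest of the 9 and the remaining one, replicate 1, the highest, so all groups overlapped. The log2 fold change was -0.45 ± 0.30 for ageing (adjusted p = 0.535) and 0.32 ± 0.30 for treatment (adjusted p = 0.762). Without aged AAV-EGFP replicate 1 the values were -0.87 for ageing and 0.73 for treatment, and without its replicate 3 they were -0.25 and 0.12. Without its replicate 2 they were -0.29 and 0.15, and none of these passed the test.

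F11r was at 69.8, 47.3 and 58.2 CPM in young AAV-EGFP, at 91.4, 72.0 and 125 CPM in aged AAV-EGFP, and at 124, 70.1 and 78.7 CPM in aged AAV-B3GNT3. In CPM the 6 aged mice lay above the 3 young mice under either virus, on 13 to 27 UMIs per mouse. The lowest aged mouse, at 70.1 CPM, was just above the highest young one, at 69.8. In UMIs per nucleus the groups overlapped. They ran from 0.112 to 0.214 in young AAV-EGFP, 0.2 to 0.287 in aged AAV-EGFP and 0.157 to 0.311 in aged AAV-B3GNT3. The log2 fold change was 0.77 ± 0.34 for ageing (adjusted p = 0.327) and 0.56 ± 0.33 for aged AAV-B3GNT3 against young AAV-EGFP (adjusted p = 0.855), and the treated and control aged mice were apart by -0.21 ± 0.33 (adjusted p = 0.889). Since microglia express F11r, their genes were read inside the BEC sums. The summed level of Csf1r, Cx3cr1 and P2ry12 was 4.48 to 23.7 CPM in young AAV-EGFP, 35.2 to 51.4 in aged AAV-EGFP and 3.50 to 32.3 in aged AAV-B3GNT3, against a mean of 1578 CPM in microglia, where F11r was at 127. The part of microglial RNA in the F11r values was not tested.

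Esam was at 249, 281 and 286 CPM in young AAV-EGFP, at 288, 453 and 418 CPM in aged AAV-EGFP, and at 372, 256 and 357 CPM in aged AAV-B3GNT3. In CPM the aged AAV-EGFP mice lay just above the young ones and overlapped the treated ones. In UMIs per nucleus Esam overlapped, at 0.664 to 0.955 in young AAV-EGFP and 0.804 to 1.26 in aged AAV-EGFP. Its log2 fold change was 0.57 ± 0.26 for ageing (adjusted p = 0.345) and -0.35 ± 0.26 for treatment (adjusted p = 0.674). With a mouse left out it ran from 0.43 to 0.75 for ageing and from -0.53 to -0.20 for treatment. Pericyte genes, read because pericytes express Esam, summed to 207 to 640 CPM in BECs of young AAV-EGFP, 69.6 to 293 in aged AAV-EGFP and 175 to 519 in aged AAV-B3GNT3. The part of pericyte RNA in the Esam values was not tested.

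The scaffold gene Tjp1 had the most UMIs of the members, 186 to 492 per mouse. It was at 1374, 1210 and 1517 CPM in young AAV-EGFP, at 1308, 1085 and 1137 CPM in aged AAV-EGFP, and at 1698, 1244 and 1542 CPM in aged AAV-B3GNT3. All groups overlapped, with log2 fold changes of -0.17 ± 0.22 for ageing (adjusted p = 0.793) and 0.25 ± 0.22 for treatment (adjusted p = 0.744). With a mouse left out Tjp1 ran from -0.25 to -0.099 for ageing and from 0.15 to 0.36 for treatment. Cgn had 0 to 2 UMIs per mouse. Marveld2 had 1 to 6 UMIs per mouse, with group means of 8.40, 12.1 and 17.6 CPM in the same order of groups, and neither gene was tested.

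Cdh5 was at 159, 172 and 166 CPM in young AAV-EGFP, at 281, 314 and 390 CPM in aged AAV-EGFP, and at 189, 137 and 152 CPM in aged AAV-B3GNT3. As with Cldn5, all 3 aged AAV-EGFP mice lay above all 6 others. The young mice, on 57, 51 and 37 UMIs, had an SD of 6.56 CPM (n = 3). At such counts this SD does not measure how much the animals vary. Its log2 fold change was 1.04 ± 0.24 for ageing (adjusted p = 0.0592) and -1.15 ± 0.25 for treatment (adjusted p = 0.0718). Neither passed the threshold with edgeR, and aged AAV-B3GNT3 and young AAV-EGFP were apart by -0.11 ± 0.25 (adjusted p = 0.983). For treatment, adjusted p was 0.0425 with DESeq2 and 0.0248 with BECs chosen by marker UMIs without clustering. For ageing DESeq2 gave 0.0744. Without aged AAV-EGFP replicate 1 edgeR gave 0.0130 for ageing and 0.0141 for treatment. Without any 1 of the other mice it gave 0.0795 to 0.276 for ageing and 0.0922 to 0.313 for treatment, the highest without aged AAV-EGFP replicate 3 and aged AAV-B3GNT3 replicate 2, and with free RNA subtracted 0.218 and 0.135. Fibroblast markers, read because the fibroblast class held Cdh5, summed to 9.28 to 28.1 CPM in BECs of aged AAV-EGFP, where Cdh5 was highest. They summed to 26.9 to 71.0 CPM in young AAV-EGFP and 45.6 to 80.9 CPM in aged AAV-B3GNT3. Their part in the Cdh5 values was not tested.

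Pecam1 was at 592, 520 and 631 CPM in young AAV-EGFP, at 548, 607 and 979 CPM in aged AAV-EGFP, and at 857, 610 and 567 CPM in aged AAV-B3GNT3. The highest value came from a single mouse, aged AAV-EGFP replicate 3, and all groups overlapped. Its log2 fold change was 0.35 ± 0.27 for ageing (adjusted p = 0.614) and -0.17 ± 0.27 for treatment (adjusted p = 0.889). Without aged AAV-EGFP replicate 3 the values were 0.050 for ageing and 0.13 for treatment.

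**Figure D2:**
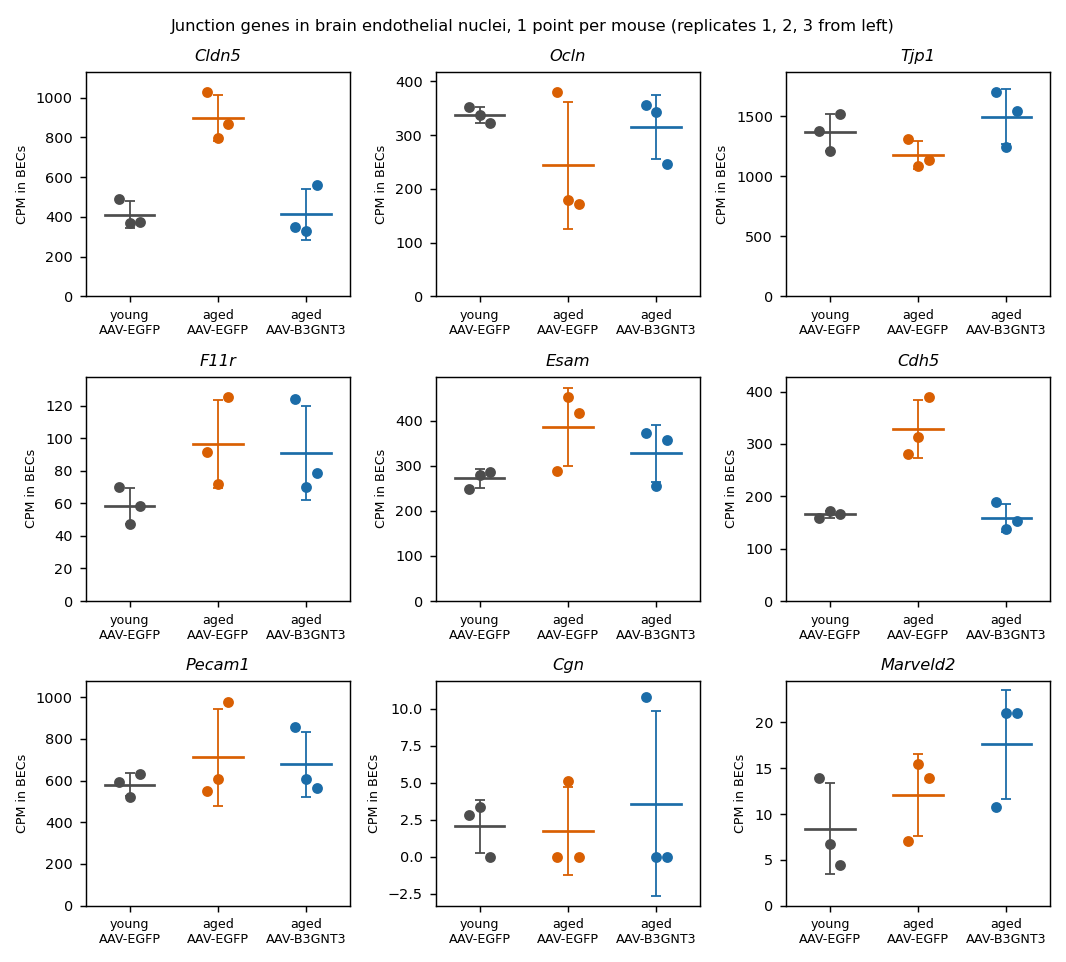
CPM of each junction gene in BECs, 1 point per mouse, with the group mean (horizontal line) and SD (error bar, n = 3) for young AAV-EGFP (grey), aged AAV-EGFP (orange) and aged AAV-B3GNT3 (blue). Cldn5 and Cdh5 are the genes in which the 3 aged AAV-EGFP mice lie above all others, while Ocln and Tjp1 do not follow that order. Cgn rests on 5 UMIs in all.

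Across members, 0 of 7 passed the adjusted threshold with edgeR in the ageing comparison, where 0.0594% of all genes did, and 0 of 7 in the treatment comparison, where 0.297% did. At an unadjusted p under 0.05 there were 4 of 7 members for ageing (Cldn5, Cdh5, F11r and Esam), against 13.7% of all genes, and 2 of 7 for treatment (Cldn5 and Cdh5), against 11.2%. DESeq2 called 1 of 7 for ageing (Cldn5), against 0.852% of all genes, and 2 of 7 for treatment (Cldn5 and Cdh5), against 0.809%. The CPM of the groups did not overlap for 4 of 7 members for ageing, against 17.0% of all genes, and for 2 of 7 for treatment, against 15%. In UMIs per nucleus the ageing groups of F11r and Esam did overlap, and the share of all genes by that measure is not given here. Between aged AAV-B3GNT3 and young AAV-EGFP, 0 of 7 members had an unadjusted p under 0.05, against 6.38% of all genes, and edgeR and DESeq2 each called 0 of 7, against 0.0% of all genes. In that comparison 1 of 7 did not overlap (F11r), against 14.6% of all genes. The median log2 fold change of the 7 members was 0.57 for ageing, -0.21 for treatment and 0.09 for aged AAV-B3GNT3 against young AAV-EGFP, beside medians of -0.017, 0.012 and 0.0040 over all genes tested. These counts describe the members, which were chosen with earlier results of these data known.

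**Figure D3:**
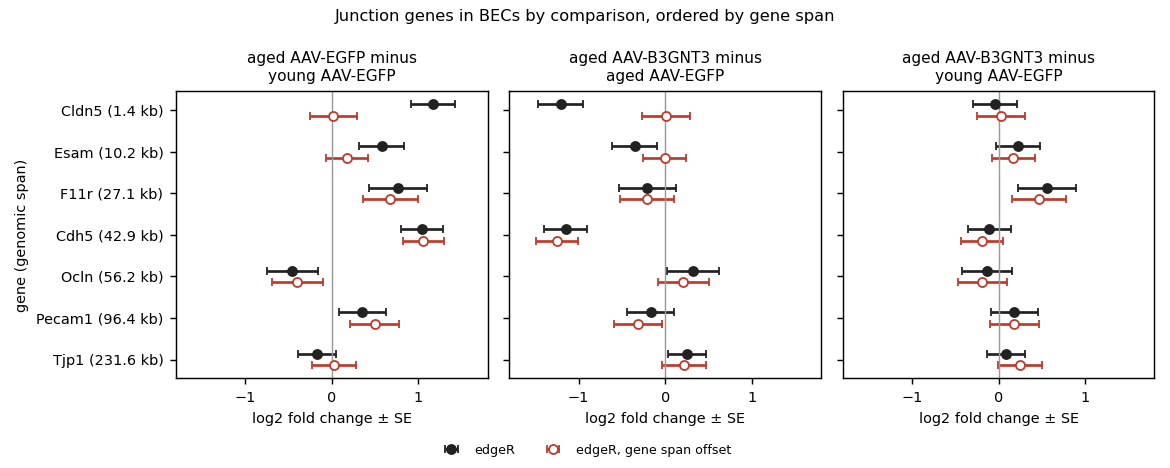
Log2 fold change ± SE of the 7 tested junction genes in BECs for the 3 comparisons (panels), ordered by genomic span from Cldn5 to Tjp1. Filled points are the edgeR fit and open points the same fit with an offset for gene span. With the offset Cldn5 moves from 1.17 to 0.019 for ageing, and Cdh5 is at 1.04 without and 1.06 with it. The offset removes any difference that genes of like span share, whatever its source, so these moves follow from the span classes.

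Gene span moved with these differences. Among BEC genes of at most 2 kb, 37 in number with Cldn5 among them, the median log2 fold change was 1.08 for ageing and -1.35 for treatment. The medians were 1.12 and -1.20 for the 139 genes of over 2 to 5 kb, 0.23 and -0.16 for the 424 genes of over 10 to 20 kb, which include Esam, and 0.06 and 0.05 for the 1340 genes of over 20 to 50 kb, which include F11r and Cdh5. Genes over 200 kb, such as Tjp1, had medians of -0.17 and -0.05. Between aged AAV-B3GNT3 and young AAV-EGFP the medians of all these spans lay between -0.22 and 0.10. Cytosolic ribosomal protein genes, which are short, summed to 2852 to 4536 CPM in BECs of young AAV-EGFP, 5812 to 8994 in aged AAV-EGFP and 3024 to 3872 in aged AAV-B3GNT3.

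Set beside genes of like span, the members lay at different distances from the median of their span class. Cldn5 differed from the median of its span class by 0.08 for ageing and 0.14 for treatment. Cdh5 differed by 0.99 and -1.20, and it lay outside the 10th to 90th percentile of its class, which ran from -0.53 to 0.69 for ageing and from -0.57 to 0.63 for treatment. F11r differed by 0.71 for ageing and by -0.25 for treatment. At 0.77 for ageing F11r lay just outside that range, but with a mouse left out it ran from 0.51 to 0.94. Some genes of every span class lie outside such a range by construction, so a place outside it does not set a member apart. Esam differed by 0.34 and -0.19, Pecam1 by 0.43 and -0.29, Ocln by -0.37 and 0.20, and Tjp1 by -0.0002 and 0.30. With an offset for gene span fitted in each library, a setting added after these values were seen, Cldn5 was at 0.019 ± 0.27 for ageing (adjusted p = 0.989) and 0.0059 ± 0.28 for treatment (adjusted p = 0.996). The offset removes any difference that genes of like span share, whatever its source, so a value near the median of its span class moves to near 0 by construction. Cdh5 was at 1.06 ± 0.23 (adjusted p = 0.122) and -1.25 ± 0.24 (adjusted p = 0.0983) in the fit with this offset. F11r was at 0.68 ± 0.32 and Esam at 0.17 ± 0.25 for ageing (adjusted p = 0.436 and 0.834). The 11 BEC markers summed to 11660 to 14768 CPM in young AAV-EGFP, 15739 to 20187 in aged AAV-EGFP and 12555 to 14921 in aged AAV-B3GNT3. Their median log2 fold change was 0.36 for ageing and -0.52 for treatment. With edgeR 0 of the 11 were called in either comparison, where 0.0594% and 0.297% of all genes were. Mitochondrial genes summed to 684 to 1213 CPM in young AAV-EGFP, 993 to 1439 in aged AAV-EGFP and 760 to 890 in aged AAV-B3GNT3, with a median log2 fold change of 0.57 for ageing and -0.59 for treatment. The part of purity and RNA quality of the BEC sums in the member values was not tested.

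**Figure D4:**
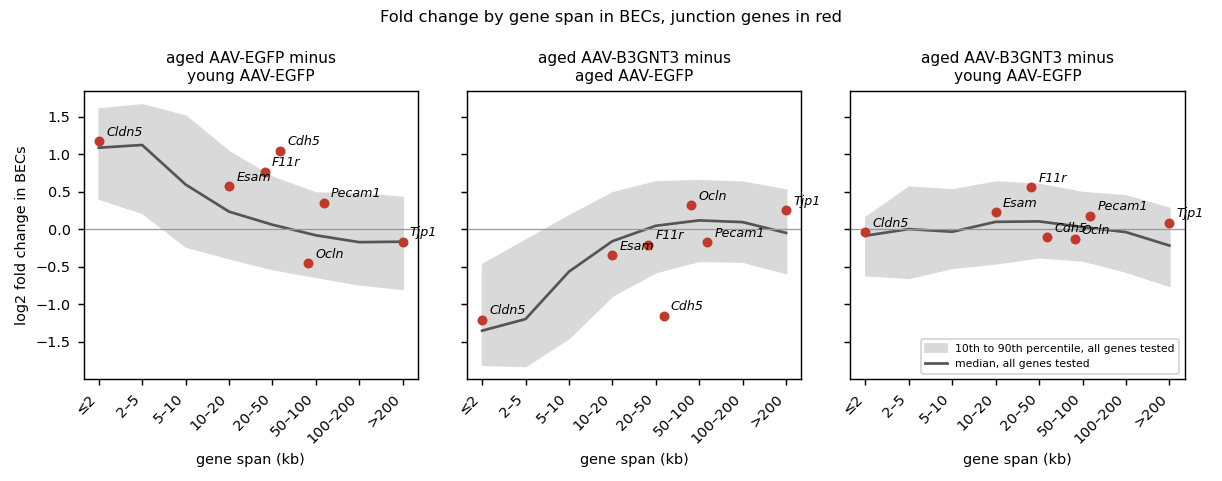
Log2 fold change in BECs against gene span class (kb) for the 3 comparisons (panels). The line is the median and the band the 10th to 90th percentile over all genes tested, and red points are the junction genes, drawn in their span class. For ageing and treatment Cldn5 lies on the line of short genes, whereas Cdh5, and for ageing F11r, lies outside the band of genes of its span. Some genes of every class lie outside the band by construction. With a mouse left out F11r ran from 0.51 to 0.94 for ageing, where the band of its class ended at 0.69.

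Among 32 further genes of junctions (other claudins, JAMs, angulins, catenins, nectins, polarity and scaffold proteins), 18 passed the filter in BECs. With edgeR 0 of 18 passed the adjusted threshold in any of the 3 comparisons, and 3 had an unadjusted p under 0.05 for ageing, 3 for treatment and 0 for aged AAV-B3GNT3 against young AAV-EGFP, where 13.7%, 11.2% and 6.38% of all genes did. Their median log2 fold change was -0.035 for ageing and 0.0022 for treatment, beside -0.017 and 0.012 over all genes. The smallest adjusted p were 0.223 and 0.0804.

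Outside BECs, 8 classes had at least 10 nuclei in every mouse, and the members that passed the filter there made 28 pairs of gene and class. Tjp1 was tested in all 8, and excitatory neurons had 8 members tested, all but Tjp1 at 8.04 CPM or less. In the ageing comparison 0 of 28 pairs passed the threshold with edgeR, or with DESeq2 where it gave an adjusted p, and 5 had an unadjusted p under 0.05, as did 25.3% of all genes of these classes together. The shares of all genes called by edgeR there were 0.649% in oligodendrocyte precursors, 11.8% in astrocytes, 13.9% in excitatory neurons, 0.462% in fibroblasts, 3.76% in inhibitory neurons, 0.0% in microglia, 21.3% in oligodendrocytes and 1.03% in pericytes. In the treatment comparison 0 of 28 pairs passed with either tool, read in the same way, and 4 had an unadjusted p under 0.05, as did 17.8% of all genes. The shares of all genes called were 0.191%, 4.75%, 2.53%, 0.0%, 0.0582%, 0.0%, 8.74% and 0.244% in the same order of classes.

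Pericytes share the capillary wall with BECs and were the second class of Esam. There Esam was at 89.1, 91.0 and 114 CPM in young AAV-EGFP, at 139, 198 and 188 CPM in aged AAV-EGFP, and at 99.5, 92.3 and 120 CPM in aged AAV-B3GNT3. The 3 aged AAV-EGFP mice lay above all others, and the share of all pericyte genes with this order is not given here. It differed by 0.89 ± 0.24 on the log2 scale for ageing (adjusted p = 0.0902) and -0.86 ± 0.24 for treatment (adjusted p = 0.150). Without aged AAV-EGFP replicate 1 adjusted p was 0.0295 and 0.0482 in edgeR, and without doublet removal it was 0.0471 for ageing. DESeq2 gave adjusted p = 0.255 for ageing and 0.573 for treatment. The highest edgeR adjusted p with a mouse left out were 0.240 for ageing, without aged AAV-EGFP replicate 2, and 0.438 for treatment, without aged AAV-B3GNT3 replicate 2. Esam is the member with the second shortest span, and whether fold changes in pericytes went with gene span was not tested.

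For ageing the log2 fold change of Tjp1 was negative in all 8 of these classes, as in BECs, and passed the test in none. The classes share mice. In BECs only 33.7% of genes over 200 kb, such as Tjp1, were above 0 for ageing, with a median of -0.17. The share of such genes below 0 in the other classes was not computed. Tjp1 was at -0.38 ± 0.14 in oligodendrocytes (adjusted p = 0.0719), -0.36 ± 0.16 in astrocytes (adjusted p = 0.167) and -0.30 ± 0.13 in oligodendrocyte precursors (adjusted p = 0.247), by edgeR. In pericytes it was at -0.38 ± 0.20, in fibroblasts at -0.31 ± 0.15, in inhibitory neurons at -0.24 ± 0.13, in microglia at -0.20 ± 0.20 and in excitatory neurons at -0.20 ± 0.13, with edgeR adjusted p from 0.278 to 0.673. These sizes rested in part on single mice. Tjp1 in oligodendrocytes was at -0.56 without aged AAV-EGFP replicate 1 (edgeR adjusted p = 0.00442) and -0.29 without its replicate 3. Without aged AAV-EGFP replicate 3 it was at -0.085 in excitatory and -0.13 in inhibitory neurons, and at -0.31 in excitatory neurons without replicate 1. It was at -0.18 in astrocytes without young AAV-EGFP replicate 3, at -0.24 in pericytes without aged AAV-EGFP replicate 1, and between -0.32 and -0.15 in microglia with a mouse left out. In precursors the aged AAV-EGFP mice, at 399 to 409 CPM, were below the young ones at 462 to 517. They were also below them without overlap in astrocytes, fibroblasts, inhibitory neurons and pericytes, and overlapped them in the remaining classes. In fibroblasts Tjp1 was higher in aged AAV-B3GNT3, at 822 to 889 CPM, than in aged AAV-EGFP, at 536 to 652 CPM (log2 fold change 0.45 ± 0.15, edgeR adjusted p = 0.256). For treatment it was also higher without overlap in pericytes, at 0.35 ± 0.20, and precursors, at 0.16 ± 0.13 (edgeR adjusted p = 0.525 and 0.661). In the remaining classes these groups overlapped. Shares of all genes without overlap in these classes are not given here. Marveld2 in inhibitory neurons had the smallest adjusted p for ageing outside BECs, at -1.29 ± 0.35 (edgeR adjusted p = 0.0613), on levels of 0.534 to 2.11 CPM. Cdh5 in fibroblasts, its second class, was at -0.20 ± 0.25 for ageing and -0.13 ± 0.26 for treatment (edgeR adjusted p = 0.734 and 0.886). With a mouse left out it ran from -0.41 to -0.071 for ageing, without aged AAV-EGFP replicates 3 and 2, and from -0.36 to 0.083 for treatment, without aged AAV-B3GNT3 replicate 1 and aged AAV-EGFP replicate 3.

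By pattern over the 9 named classes, each member was set beside 18630 genes with at least 100 UMIs, with Pearson's r of mean log2(CPM + 1) as the measure of likeness. The nearest to Cldn5 were Mecom (r = 0.994), Srarp (0.992) and Adgrl4 (0.991). For Esam they were Emcn (0.990), Vsig2 (0.988) and Foxf2 (0.985), and for Cdh5 Thbd (0.997), Xdh (0.990) and Abcb1a (0.988). Mecom, Adgrl4, Emcn and Abcb1a are among the markers that named the BECs. For F11r they were Lgals9 (0.993), Cmtm6 (0.985) and Gm27201 (0.980), for Ocln Stra6 (0.988), C130074G19Rik (0.988) and Trim16 (0.976), and for Pecam1 Gm5127 (0.990), Gm35572 (0.983) and Ost4 (0.975). Tjp1 was nearest to Gm29107, Ephb4 and Acacb (0.948 to 0.956), Marveld2 to Lactb, Layn and Ly6e (0.958 to 0.964) and Cgn to 1700026F02Rik, 6430571L13Rik and Tcerg1l (0.961 to 0.973). These values are over 9 points that share mice and libraries, and with so few points a high r is easily reached.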

How the data were processed

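The deposited matrices hold raw UMI counts of each gene in each nucleus. The authors aligned the reads to GRCm38 with Cell Ranger (version 4.0.0 in the submitters' processing notes, 7.2.0 in the matrix headers). Whether intronic reads were counted is not given in the sources used here, and it bears on levels of genes with long introns. The authors' removal of free RNA and doublets is not in these counts.

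Limits of 200 to 5000 genes and 10% mitochondrial UMIs left 74895 of 77823 barcodes, and 70287 remained after removal of likely doublets (0.8% per 1000 barcodes, a preset rate). Log-normalised counts of 2000 variable genes, without the junction genes, gave 15 principal components and a graph of 20 neighbours, clustered with Leiden (resolution 0.3). Clusters were named by fixed markers, and may not match the classes of the study. The members, gene lists and markers were chosen with earlier results of these data known.

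UMI counts were summed per mouse and class (at least 10 nuclei in every mouse), passed through filterByExpr at a minimum count of 10, TMM-scaled (factors 0.925 to 1.06 in BECs) and fitted with edgeR 4.0.16 in R 4.3.3, with all 9 mice in 1 fit per class and group as the only term. Tests were two-sided, at an adjusted p under 0.05 within a class. SE values derive from the F statistic. CPM use raw class totals. The alternative tool was DESeq2 1.42.0. The functions were tested on simulated data. The labels number the replicates 1 to 3 in each group, and same-numbered mice are different animals. The main fit has no block. Replicates of 1 group differed beyond counting noise in BECs (chi-square per degree of freedom 2.18 to 5.08). The replicates are mice, so p-values measure the spread between animals and their libraries.

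All 9 members were named whatever their p, the 32 further junction genes only if called, and for each member the 3 genes of most similar class pattern. Positions are from GENCODE vM21, which matched 31011 of 31053 genes, and promoters from RefSeq. Other settings were DESeq2, RLE size factors, no low-count filter, no doublet removal, no upper gene limit, a resolution of 1.0, junction genes used in clustering, BECs by marker UMIs, free RNA subtracted, only the groups compared, a replicate block, each mouse left out, and, added after the data were seen, an offset for gene span by a lowess curve.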

Additional observations from a re-analysis of the deposited data

Results flagged for a closer look

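Cldn5 in the ageing comparison was singled out because its groups did not overlap in BECs in one direction and in oligodendrocytes in the other. The log2 fold change was 1.17 in BECs and -0.30 ± 0.36 in oligodendrocytes (edgeR adjusted p = 0.577), where all values lay between 1.18 and 3.37 CPM. The share of all oligodendrocyte genes without overlap is not given here. For treatment Cldn5 was at -0.35 ± 0.36 in oligodendrocytes (edgeR adjusted p = 0.576). It was also tested in excitatory neurons, on 0.172 to 1.06 CPM. There it was at -0.13 ± 0.46 for ageing and -1.18 ± 0.53 for treatment (edgeR adjusted p = 0.866 and 0.205). Differences between the classes were not tested.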

How the results depend on the processing

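Depth limits these results, since BEC sums rest on 51 to 127 nuclei per mouse, F11r on 13 to 27 UMIs and Cgn and Marveld2 on 6 or fewer. Of the settings tried, DESeq2, RLE size factors and no filter on low counts each called 1 member for ageing (Cldn5), and for treatment DESeq2 called 2 (Cldn5 and Cdh5) and no filter, no upper limit on genes (Cldn5 in both) and BECs by marker UMIs (Cdh5) 1 each. With each mouse left out, 0 to 2 members were called for ageing and 0 to 2 for treatment, the 2 being Cldn5 and Cdh5 without aged AAV-EGFP replicate 1. No setting called a member between aged AAV-B3GNT3 and young AAV-EGFP. Over 21 other settings Cdh5 lay between 0.89 and 1.15 for ageing and between -1.55 and -1.01 for treatment. Cldn5 lay between 0.02 and 1.31 for ageing and between -1.51 and 0.01 for treatment, the values nearest 0 being those with the gene span offset. That offset removes any difference that genes of like span share, whatever its source.

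Over all BEC genes the ageing count of 3 became 43 with DESeq2, 44 with RLE, 196 without the filter, 1 without doublet removal, 1 with free RNA subtracted, and 0 with the gene span offset, with only the groups compared, with no upper gene limit and with BECs by marker UMIs. The treatment count of 15 became 38 with DESeq2, 139 without the filter, 39 with BECs by marker UMIs, and 0 with the gene span offset, only the groups compared or free RNA subtracted. The count of 0 for aged AAV-B3GNT3 against young AAV-EGFP became 25 without the filter and 2 with only the groups compared. With each mouse left out the counts ran from 0 to 296 for ageing, 0 to 159 for treatment and 0 to 2 for the third comparison. For ageing the 296 came without aged AAV-EGFP replicate 1 and 24 without its replicate 2, 3 without aged AAV-B3GNT3 replicate 2, and 0 without any other mouse. For treatment 159 and 24 came without the same aged AAV-EGFP mice, 6 or 7 without a young mouse, and 0 without aged AAV-EGFP replicate 3 or any aged AAV-B3GNT3 mouse. The cause was not tested.

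With the replicate number as a block, the count was 16 for ageing, 18 for treatment and 0 for the third comparison, and no member was called, as without it. Deviations of same-numbered mice from their group means correlated at -0.031 to 0.204 in BECs, not over 0.1 in every pair, and in 8 of 18 comparisons with another group a mouse correlated best with its own number. By their labels the samples share only a number, and whether same-numbered samples were handled together is not given in the sources used here.

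Directions turned as follows. With the gene span offset Tjp1 was at 0.025 for ageing, and Cldn5 at 0.0059 for treatment and 0.025 against young AAV-EGFP. For treatment with BECs by marker UMIs, Ocln was at -0.032 and Tjp1 at -0.13. With single mice left out, treatment values ran from -0.475 to 0.049 for F11r and from -0.367 to 0.13 for Pecam1, positive without aged AAV-EGFP replicate 3. Against young AAV-EGFP, with BECs by marker UMIs, Tjp1 was at -0.24, Esam at -0.15 and Pecam1 at -0.15, and with no upper limit on genes Tjp1 was at -0.012. There, with single mice left out, Cldn5 ran from -0.31 to 0.11, Tjp1 from -0.011 to 0.19, Ocln from -0.22 to 0.021 and Pecam1 from -0.015 to 0.30. In fibroblasts Cdh5 for treatment ran from -0.36 to 0.083. None of these passed the test.

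In other classes 1 pair was called for ageing without doublet removal (Esam in pericytes). With each mouse left out 0 to 4 were called for ageing and 0 to 1 for treatment, the 4 being Esam in pericytes and excitatory neurons, Marveld2 in inhibitory neurons and Tjp1 in oligodendrocytes, without aged AAV-EGFP replicate 1. Shares of all genes called in these settings are not given here, so these calls do not set the members apart. In the main fit the ageing shares were 1.03% in pericytes, 13.9% in excitatory neurons, 3.76% in inhibitory neurons and 21.3% in oligodendrocytes. With free RNA subtracted, mean BEC levels were 896 CPM for Cldn5, 474 for Ocln, 1781 for Tjp1, 126 for F11r, 520 for Esam, 341 for Cdh5, 1031 for Pecam1 and 20.5 for Marveld2. With BECs by marker UMIs Tjp1 was at 1140 CPM.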
